A study of Homo sapiens with 3 samples.

Results

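The 59 genes described here encode the core proteins of the spliceosome and the SR proteins, and they were taken by gene name from a list that groups them by place in the splicing machinery. Of these 59 genes, 44 had at least 1 A-to-G site in 3 deposited site lists that name 4245 genes in all, and they held 249 of 16820 listed positions. The lists come from a HyperTRIBE experiment on DDX41, a DEAD-box helicase that has been found in purified spliceosomes and is recurrently mutated in myeloid neoplasms. In HyperTRIBE an RNA-binding protein is expressed as a fusion with a hyperactive ADAR catalytic domain, which turns adenosine into inosine. Inosine is read as G, so RNA near the fused protein carries A-to-G changes in its reads.

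All cells were THP-1, a human monocytic leukemia line, transduced with a pGK-GFP retrovirus and harvested for total RNA at day 7. The 3 groups were cells with the empty vector, which carried no transgene, cells with the hyperactive catalytic domain by itself (ADARcd alone) and cells with DDX41 joined to that domain (DDX41-ADARcd). The retroviral transgene was added to cells in which the endogenous DDX41 gene was not described as altered. Each group had 1 library, so there is no replicate error anywhere below, and the tests compare single libraries, which cannot stand for the conditions.

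The spliceosome removes introns from pre-mRNA. The U1 snRNP recognises the 5′ splice site, the U2 snRNP binds the branch point with help from the U2AF proteins at the 3′ splice site, and the U4/U6.U5 tri-snRNP then joins before the complex is rearranged into its active form. Each of these particles except U6 is built on a ring of Sm proteins, and helicases drive the rearrangements. SR proteins bind exons and recruit these particles, while SON, SRRM2 and related proteins with long serine- and arginine-rich regions are found in nuclear speckles, where splicing factors are concentrated. In myeloid leukemia, SF3B1, SRSF2, U2AF1 and ZRSR2 are recurrent targets of mutation.

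Both transduced libraries were set against the empty vector, in a list each, and the remaining list sets DDX41-ADARcd against ADARcd alone. In each list, the first library of the pair is the edited one and the other its control. A position was listed with as little as 1 edited read, and in every case with 0 edited reads and at least 10 reads in the control. At member sites the median depth was 113 reads in ADARcd alone against 14 in the empty vector, 75 in DDX41-ADARcd against 14 in the empty vector, and 49 in DDX41-ADARcd against 77 in ADARcd alone. Over the 23 positions of DDX41 itself in the last list, the median was 236 reads with the fusion and 32 with ADARcd alone. Of 16 genes taken as monocytic markers, 11 were listed: AZU1, CSF1R, CTSG, ELANE, FCGR1A, ITGB2, LYZ, MNDA, PTPRC, SPI1 and SPN. CD14, CD33, CEBPB, ITGAM and MPO were not listed. None of 3 T cell, 3 B cell, 3 erythroid or 3 epithelial markers was listed. The sets differ in size, and a gene is listed only with an edited read, so these counts do not establish the cell type.

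ADARcd alone had 67 sites in 20 of the 59 genes, DDX41-ADARcd had 44 sites in 15 genes against the empty vector, and DDX41-ADARcd had 182 sites in 40 genes against ADARcd alone. Most rested on a single edited read. This was so for 53 of 67 sites (79.1%), 38 of 44 (86.4%) and 154 of 182 (84.6%), close to the 74.8%, 81.5% and 83.9% over all sites of these lists. The median editing level, the percent of reads at a site that carry G, was 0.893% (95% interval of the median 0.813 to 1.08) for ADARcd alone, where it was 0.434% over all 6413 sites of that list. It was 1.38% (1.14 to 1.59) for DDX41-ADARcd against the empty vector and 0.515% over all 3516 sites. It was 2.33% (2.04 to 2.82) against ADARcd alone and 3.70% over all 10407 sites. A site with 1 edited read has a level of 1 over its depth, so these medians follow the number of reads, which the plot of level against depth shows. The median depths over all sites of the 3 lists were 286, 220 and 30 reads. The intervals of the medians treat sites as independent, though all come from 1 library and several from the same gene.

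**Figure D1:**
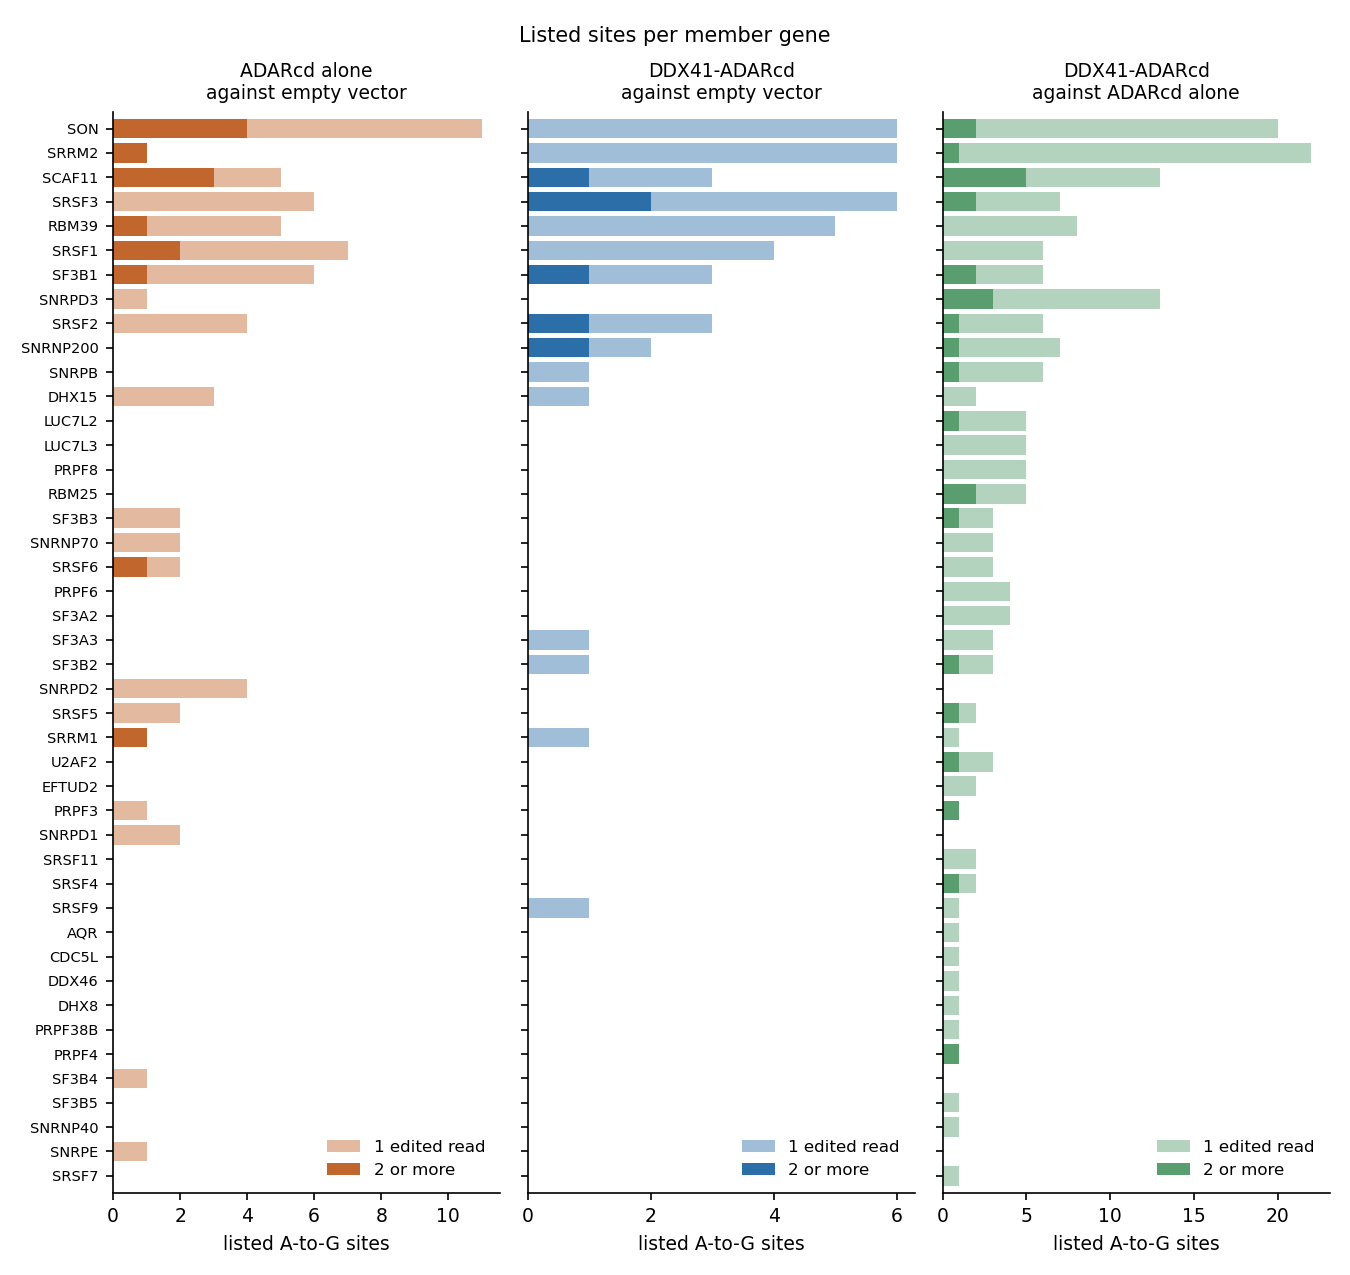
Number of listed A-to-G sites (horizontal axis, on its own scale in each panel) for each listed member gene (vertical axis) in the 3 comparisons, with sites on 2 or more edited reads in the darker shade. SON, SRRM2, SCAF11 and SNRPD3 carry the most sites against ADARcd alone (20, 22, 13 and 13).

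No member site passed a two-sided Fisher's exact test of edited against other reads with Benjamini-Hochberg adjustment over all sites of a comparison (threshold 0.05). For ADARcd alone against the empty vector, 0 of 67 member sites were called, with 13 of all 6412 tested sites called (0.203%). At an unadjusted p under 0.05 there was 1 member site (1.49%), in SON, and 0.546% of all sites. For DDX41-ADARcd against the empty vector, 0 of 44 member sites were called and 0 of all 3512 (0%), and 0 of 44 had an unadjusted p under 0.05, with 0.0854% of all sites. For DDX41-ADARcd against ADARcd alone, 0 of 171 tested member sites were called, with 0.282% of all 9227. At an unadjusted p under 0.05 there were 2 member sites (1.17%), in SCAF11 and SNRPB, with 0.856% of all sites. The 9227 include positions listed for both transduced libraries against the empty vector, and no member site is among these. Listed sites were selected for an edited read and for none in the control. The p-values of listed sites, members or not, therefore do not have the meaning they have at unselected sites. At the median member depths, an unadjusted p under 0.05 needs 27 of 113, 19 of 75 and 4 of 49 edited reads, in the same order. Editing at the levels seen at most member sites was therefore not detectable at this depth with a single test.

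Sites on 2 or more edited reads made up 14 of 67 member sites of ADARcd alone (20.9%), and 25.2% of all sites of that list. With DDX41-ADARcd and the empty vector as control they made up 6 of 44 member sites (13.6%) and 18.5% of all sites. Where both libraries had at least 20 reads, these shares were 0 of 17 for ADARcd alone and 3 of 11 (27.3%) for DDX41-ADARcd. Over all sites with that depth they were 25.8% and 19.0%. Against ADARcd alone they made up 28 of 182 member sites (15.4%), near the 16.1% over all sites. Reads with a base other than A or G at member sites were 0.159%, 0.126% and 0.198% of reads, against 1.44%, 1.26% and 2.23% with the edited base. Since a listed site has at least 1 edited read by selection and no such rule holds for the other bases, those shares are not on equal terms.

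**Figure D2:**
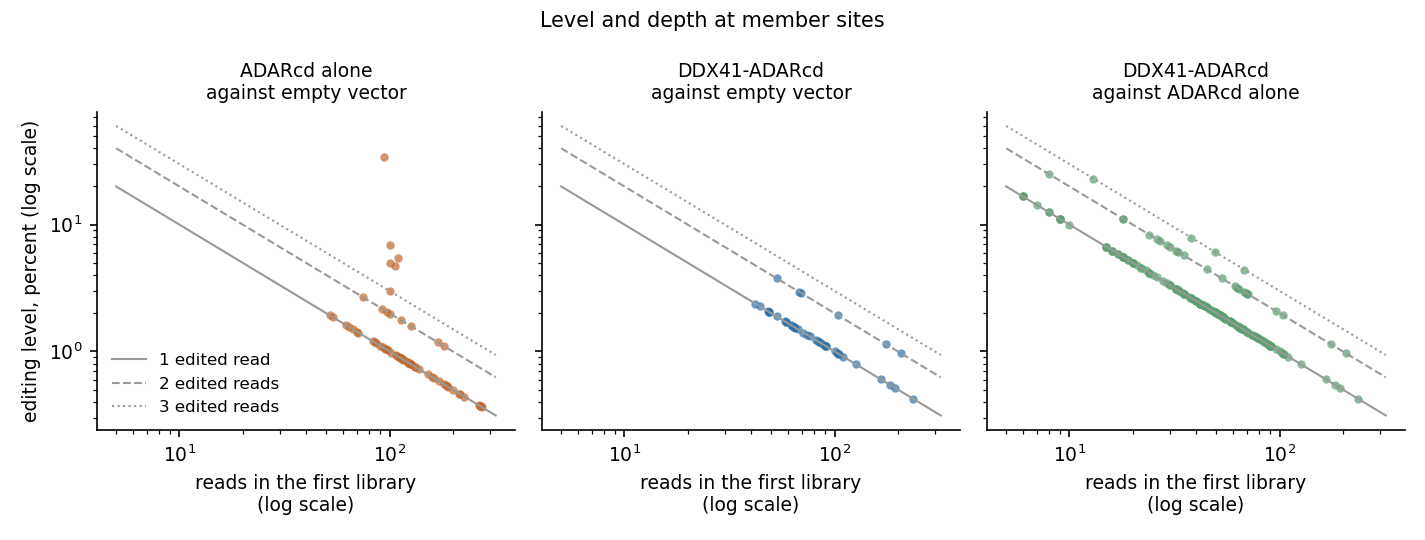
Editing level in percent (vertical axis, log scale) against reads at the site (horizontal axis, log scale) for every member site, 1 panel per comparison, with lines where 1, 2 and 3 edited reads fall. Most points lie on the line of 1 edited read, and the SON site at 34.0% stands far above the others of ADARcd alone.

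The strongest editing in these genes was in SON, which encodes a large nuclear speckle protein that binds RNA and is needed for splicing of weak introns. Its largest exon encodes runs of short repeats, and 1 such run fills chr21:33551371-33551940 (GRCh38, + strand, coding exon), 570 bases in 19 units of 30 bases, each sharing at least 21 bases with the next. In ADARcd alone, 4 neighbouring units were edited at the same base, the 16th of the unit. The units are shown because they differ by few bases around that A, with base 16 in capitals (GENCODE 29 transcript, GRCh38, + strand, 5′ to 3′).
SON unit 4: cagatgctagcatccAacaccatggactcc
SON unit 5: cagatgttagcgtctAgcaccatggactcc
SON unit 6: cagatgttagcaactAgctccatggactcc
SON unit 7: cagatgttagcaactAgctccatggactcc
SON unit 8: cagatgttagcaactAgcactatggactcc
SON unit 9: cagatgttagcaaccAgttccatggactcc
SON unit 14: cagatgttagcaaccAgcaccatggactcc
SON unit 15: cagatgttagcaactAgctcaatggattcc
SON unit 16: cagatgttagcatctGgcactatggactct

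At unit 5 (chr21:33551506), 32 of 94 reads of ADARcd alone were edited, a level of 34.0% (exact Clopper-Pearson 95% interval 24.6 to 44.5). The empty vector had 0 of 10 reads there, which allows a level of up to 30%. The two-sided Fisher's exact test gave p = 0.0293, and an adjusted p of 1 over the sites of the list. Units 6, 7 and 8 had 7 of 101 edited reads (6.93%, 2.83 to 13.8), 5 of 100 (5%, 1.64 to 11.3) and 6 of 110 (5.45%, 2.03 to 11.5). The empty vector had 0 edited reads of 11, 13 and 16 at these positions. The interval of unit 5 lies above those of the 3 other units, whose intervals overlap, and these intervals cover counting error only. In the whole list, 30 of 6413 sites had as many edited reads as unit 5 or more, and 8 had a level as high or higher.

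All 4 edited units read TAG around base 16. Of the 19 units, 6 read TAG, and those without a listed site at that base are units 15 and 19. The 9 units with C before the A (T15C relative to unit 5, with positions counted from 1 at the unit's 5′ end) had 0 listed sites at base 16, and 3 units (16 to 18) have no A there (A16G). Units 6 and 7 are identical in sequence and differ from unit 5 by G12A, T13A and A19T. Unit 14 differs from unit 5 by G12A, T13A and T15C. Reads at unlisted positions are not part of the lists, so a unit without a listed site may have been unedited, or may have had fewer than 10 reads in the empty vector, which had 10 to 16 at the listed ones. In unit 10, ADARcd alone had listed sites on either side of base 16 (chr21:33551656). These were chr21:33551652 (1 of 126 reads edited) and chr21:33551662 (1 of 123), each with 0 of 13 in the empty vector. The array is repetitive, and how reads were placed within it was not tested.

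**Figure D3:**
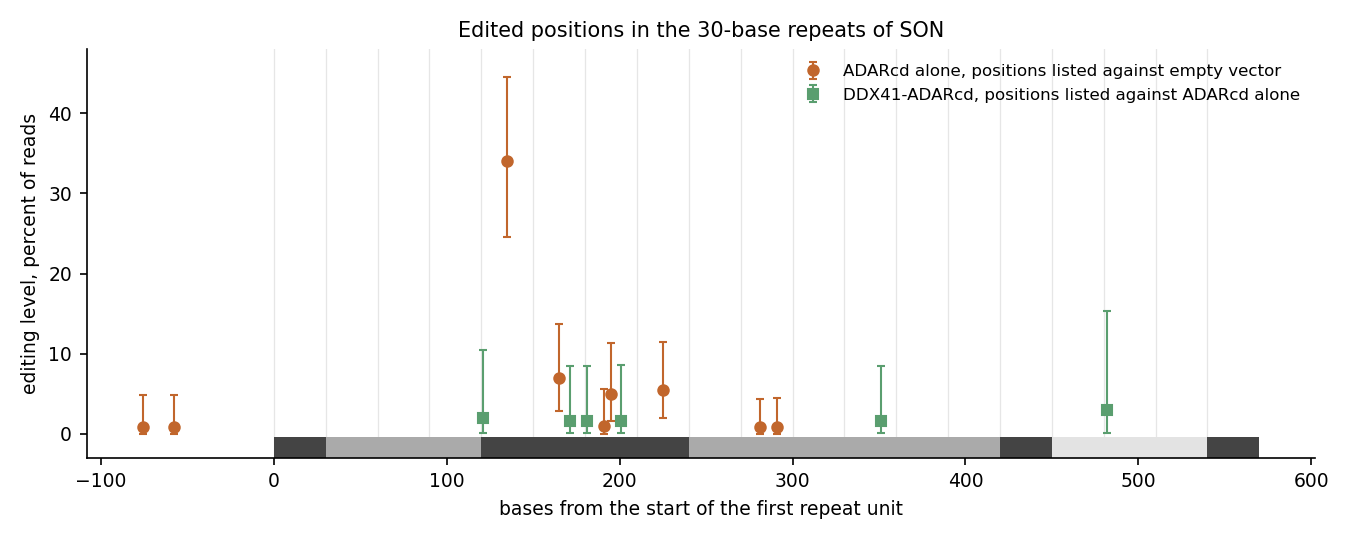
Editing level in percent of reads (vertical axis, points with exact 95% intervals) by distance in bases from the start of the first repeat unit of SON (horizontal axis), for positions of ADARcd alone listed against the empty vector and of DDX41-ADARcd listed against ADARcd alone; the strip shades units with T then A (dark), C then A (middle) and no A (light) at bases 15 and 16. The 4 sites at base 16 of units 5 to 8 have 34.0% and then 5% to 6.93%, while the sites of DDX41-ADARcd rest on 1 edited read each.

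None of the 4 positions was listed for DDX41-ADARcd against the empty vector, and the lists do not give its reads at them. With edited reads in ADARcd alone, they could not be in the list against ADARcd alone. DDX41-ADARcd did have sites elsewhere in the array, each on 1 edited read with 0 in ADARcd alone. They included chr21:33551542 in unit 6 (1 of 64 reads) and chr21:33551552 and chr21:33551572 in unit 7 (1 of 64 and 1 of 63). At the 6 positions of the array where it was listed, its depth was 34 to 64 reads, which does not give its depth at the 4 sites of ADARcd alone. The 4 array sites held 50 of the 127 edited reads of ADARcd alone over all member sites (39.4%). Without the array, 74 of 8078 reads at 60 member sites were edited (0.916%), 10 sites had 2 or more edited reads (16.7%), and the most at 1 site was 5. Outside the array, DDX41-ADARcd had 3 of 49 edited reads in SON at chr21:33550500 (6.12%, 1.28 to 16.9), where ADARcd alone had 0 of 78 (Fisher's exact test p = 0.0553, adjusted p 0.56).

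SCAF11, an SR-related protein that takes part in spliceosome assembly, held the next best supported sites of ADARcd alone. At chr12:45926883, 5 of 106 reads were edited (4.72%, 1.55 to 10.7), and at chr12:45927324, 3 of 100 (3%, 0.623 to 8.52), with 0 of 18 in the empty vector at each. Both lie in a coding exon on the - strand. With the 4 SON units they make up the 6 member sites of ADARcd alone that had 3 or more edited reads, and all 6 read TAG around the edited A.
SCAF11 chr12:45926869-45926898: tccagatctcattctAggtccccctcaaga
SCAF11 chr12:45927310-45927339: cgtactcgaagatctAgatttcattctcca

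Among all listed sites of ADARcd alone on a transcript, TAG was at 318 of 6013 (5.29%), at 131 of 1532 with 2 or more edited reads (8.55%) and at 77 of 495 with 3 or more (15.6%). Of every A in the longest coding transcripts of the members, 3.61% are in TAG. The motif was read on the transcribed strand only. Units of 1 repeat array share their sequence, so the 4 SON sites are not separate examples of it.

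In DDX41-ADARcd, SCAF11 was listed at 13 sites against ADARcd alone, with 19 edited reads and levels from 1.82% to 7.89%. The best supported was chr12:45921080 in the 3′ UTR, with 3 of 38 reads (7.89%, 1.66 to 21.4) against 0 of 68 in ADARcd alone (Fisher's exact test p = 0.0437, adjusted p 0.56). Near it, chr12:45921059 had 2 of 33 edited reads against 0 of 66, and sites at chr12:45921079 and chr12:45921089 had 1 edited read each. None of these 4 neighbouring 3′ UTR positions was listed against the empty vector, and the lists do not give its reads at them. In a coding exon, chr12:45926824 had 2 of 68 edited reads (2.94%), with 0 of 140 in ADARcd alone and 0 of 29 in the empty vector.

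SRRM2, the scaffold protein of nuclear speckles, had more sites in the lists of DDX41-ADARcd, a difference that was not tested. It had 1 site in ADARcd alone, with 2 of 113 reads edited, and 6 in DDX41-ADARcd against the empty vector, each with 1. Against ADARcd alone it had 22 sites, all in coding exons, with 23 edited reads in all and depths of 45 to 103 reads. RBM39, an SR-related splicing factor, had 5 sites in ADARcd alone (levels 0.758% to 2.17%), 5 in DDX41-ADARcd (1.22% to 2.38%) and 8 against ADARcd alone (1.22% to 6.67%). Its levels in both libraries overlapped. Together the 5 speckle and SR-related genes, SON, SRRM1, SRRM2, SCAF11 and RBM39, held 23 of the 67 sites of ADARcd alone, 21 of the 44 with DDX41-ADARcd and the empty vector as control and 64 of 182 against ADARcd alone. Such totals were not set against transcript length or depth. SRRM1 had 1 site in each list.

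Of the 10 SR proteins, 5 were listed for ADARcd alone (21 sites), 4 for DDX41-ADARcd against the empty vector (14 sites) and 9 against ADARcd alone (30 sites). Depth and level varied widely among them. In ADARcd alone the median depth ran from 92 reads in SRSF6 to 242.5 in SRSF3, and against ADARcd alone from 9 reads at the 1 site of SRSF7 to 176 in SRSF3. SRSF3, a small SR protein that also acts in mRNA export, had 6 sites in ADARcd alone, each with 1 edited read of 181 to 274, and 6 in DDX41-ADARcd against the empty vector at depths of 126 to 236 reads. Of the latter, chr6:36598849 had 2 of 207 edited reads (0.966%) with 0 of 241 in ADARcd alone and 0 of 28 in the empty vector. At chr6:36601186 there were 2 of 176 (1.14%), with 0 of 267 and 0 of 12. SRSF2, which binds exonic enhancers, had 4 sites in ADARcd alone, each with 1 edited read, and 3 in DDX41-ADARcd, of which chr17:76736806 had 2 of 104 (1.92%) with 0 of 145 and 0 of 11.

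SRSF1, the founding SR protein, had 7 sites in ADARcd alone with levels from 0.461% to 1.18%, and 5 of them lay in the 3′ UTR. It had 4 in DDX41-ADARcd against the empty vector, all in the 3′ UTR and each with 1 edited read of 74 to 110. SRSF6 had 2 sites in ADARcd alone, at chr20:43460211 with 2 of 101 reads (1.98%) and at 1 more coding position. Its 3 sites against ADARcd alone were all in the 3′ UTR, at 18 to 21 reads. SRSF4 had the highest level of an SR protein site at 20 or more reads in both libraries, 2 of 24 (8.33%, 1.03 to 27) at chr1:29154801, with 0 of 28 in ADARcd alone. SRSF10 was not listed.

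The U2 snRNP proteins recognise the branch point, and 7 of the 11 were listed against ADARcd alone, with 3 in each list against the empty vector. SF3B1, the largest subunit of SF3b, had 6 sites in ADARcd alone, all in coding exons, with 7 edited reads at depths of 71 to 126. In DDX41-ADARcd it had 3 sites against the empty vector, and chr2:197400869 had 2 of 69 edited reads (2.90%, 0.353 to 10.1), with 0 of 110 in ADARcd alone and 0 of 29 in the empty vector. A second SF3B1 site, chr2:197396191, had 2 of 45 (4.44%) against 0 of 74 in ADARcd alone. SF3B3, another SF3b subunit, had 2 of 27 (7.41%, 0.910 to 24.3) at chr16:70538446 against 0 of 49. SF3A3, a subunit of SF3a, had 1 site in DDX41-ADARcd against the empty vector, with 1 of 53 reads. Of the 3 proteins that recognise the 3′ splice site, U2AF2 was listed at 3 sites against ADARcd alone and U2AF1 and ZRSR2 were not listed. U2AF1 has a near-identical copy, U2AF1L5, in the annotation, and it was not listed either.

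The proteins of the U1 snRNP and its partners were listed mostly against ADARcd alone, with 18 sites in 4 of the 6 genes. RBM25, a U1-associated regulator, had 5 sites with 7 edited reads, of which chr14:73105905 had 2 of 26 (7.69%, 0.946 to 25.1) with 0 of 48 in ADARcd alone. LUC7L2, which takes part in the choice of 5′ splice sites, had 5 sites with 7 edited reads. SNRNP70, chosen here after its values were seen, was the 1 gene of the group with sites in ADARcd alone, 2 sites with 1 edited read each. SNRPA and PRPF39 were not listed. Among the 10 tri-snRNP proteins, 8 were listed against ADARcd alone (22 sites), and 1 each in the lists against the empty vector. SNRNP200, the helicase that unwinds U4 from U6, had 7 sites against ADARcd alone, and at chr2:96291486 it had 2 of 53 edited reads (3.77%, 0.460 to 13), with 0 of 77 in ADARcd alone and 0 of 10 in the empty vector. PRPF3 had 2 of 29 (6.90%) at chr1:150344509 against 0 of 43. PRPF8, the core scaffold of the spliceosome, had 5 sites there with 1 edited read each; it too was chosen after its values were seen.

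The 7 Sm genes had 8 sites in ADARcd alone, 1 in DDX41-ADARcd with the empty vector as control and 19 when ADARcd alone was the control, 13 of the 19 in SNRPD3. SNRPD2 had 4 sites in ADARcd alone, each with 1 edited read of 152 to 227, and none in the other lists. SNRPB, which shares the Sm ring with SNRPD2, had no site in ADARcd alone and 1 in DDX41-ADARcd when the empty vector was the control. It had 6 in DDX41-ADARcd against ADARcd alone. The median control depth at its sites was 11 reads in the empty vector and 121 in ADARcd alone, so these counts are not on equal terms. At chr20:2463831 SNRPB had 3 of 68 edited reads (4.41%, 0.919 to 12.4) with 0 of 119 in ADARcd alone (Fisher's exact test p = 0.0467, adjusted p 0.56). SNRPD3 had 1 site in ADARcd alone, with 1 of 90 reads. Of the 7 genes of the PRPF19 complex, the remodelling helicases and the exon junction complex, DHX15, the helicase that takes apart the spliceosome after splicing, had 3 sites in ADARcd alone (1.43% to 1.92%), 1 in DDX41-ADARcd against the empty vector (1 of 67 reads) and 2 against ADARcd alone. No site in this group had 2 or more edited reads. PRPF19, DHX38 and EIF4A3 were not listed.

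Each of the 44 member sites found with DDX41-ADARcd when the empty vector was the control appears again in the list with ADARcd alone as control, so each had 0 edited reads in ADARcd alone as well. None of the 44 was among the 67 sites of ADARcd alone. Over all sites, 402 positions were shared, 11.4% of the list of DDX41-ADARcd and 6.27% of that of ADARcd alone. By gene, 10 members had sites in both lists against the empty vector, 10 in that of ADARcd alone only and 5 in that of DDX41-ADARcd only, and 19 were listed only against ADARcd alone. The median depth at the 44 positions was 75 reads in DDX41-ADARcd, 119 in ADARcd alone and 14 in the empty vector. A position with an edited read in ADARcd alone could not be in the list against it, so that list cannot show a lower level in the fusion.

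The 6 member sites with 2 edited reads in DDX41-ADARcd against the empty vector, described above by gene, all have G before the edited A. They are shown with the 3 exonic sites that had 3 edited reads against ADARcd alone, with the edited A in capitals (GENCODE 29 transcripts, GRCh38, transcribed strand, 5′ to 3′). The windows of SRSF2 and SRSF3 cross exon junctions, so the position of the edited A is given.
SCAF11 chr12:45926824: tggtagaattgacagAgatagttactctcc
SRSF2 chr17:76736806: ggctacggacgccggAgccgcagccctagg
SNRNP200 chr2:96291486: acctagagctgaaggAtcttctgccttatg
SF3B1 chr2:197400869: tatccaggattgtggAtgatctgaaagatg
SRSF3 chr6:36598849: agagctagatggaagAacactatgtggctg
SRSF3 chr6:36601186: ttctctcgcagccggAgcaggtccctttct
SCAF11 chr12:45921080: caggagaatcagttgAacccgggaggcggg
SNRPB chr20:2463831: cagggctgctggcagAggaatcccagctgg
SON chr21:33550500: gcccctttctaccccAgtgcctgagttgcc

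ADAR enzymes are known to disfavour G before the edited A. In ADARcd alone, G came before the A at 18 of 67 member sites (26.9%), near the 27.4% over every A of the members' longest coding transcripts, and T at 15 (22.4%, against 17.1%). At the 14 sites with 2 or more edited reads, T came before it at 6 (42.9%) and G at 2 (14.3%), with 23.5% and 19.0% over all 1532 such sites. Of these 6 sites with T, 4 are the SON units, and without the array T came before the A at 2 of 10 (20%). In DDX41-ADARcd against the empty vector, G came before the A at 19 of 44 member sites (43.2%), with 30.7% over all sites of that list. At 2 or more edited reads it did so at 6 of 6, with 29.7% over all such sites. Against ADARcd alone it did so at 60 of 169 (35.5%, all sites 28.8%), and at 14 of 24 with 2 or more edited reads (58.3%, all such sites 26.8%). TAG was at 0 of these 24 sites, with 4.21% over all 1471 such sites. The lists of DDX41-ADARcd share sites and these are small numbers, with no test made of them. The part of base composition and of read errors in these shares was not tested.

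**Figure D4:**
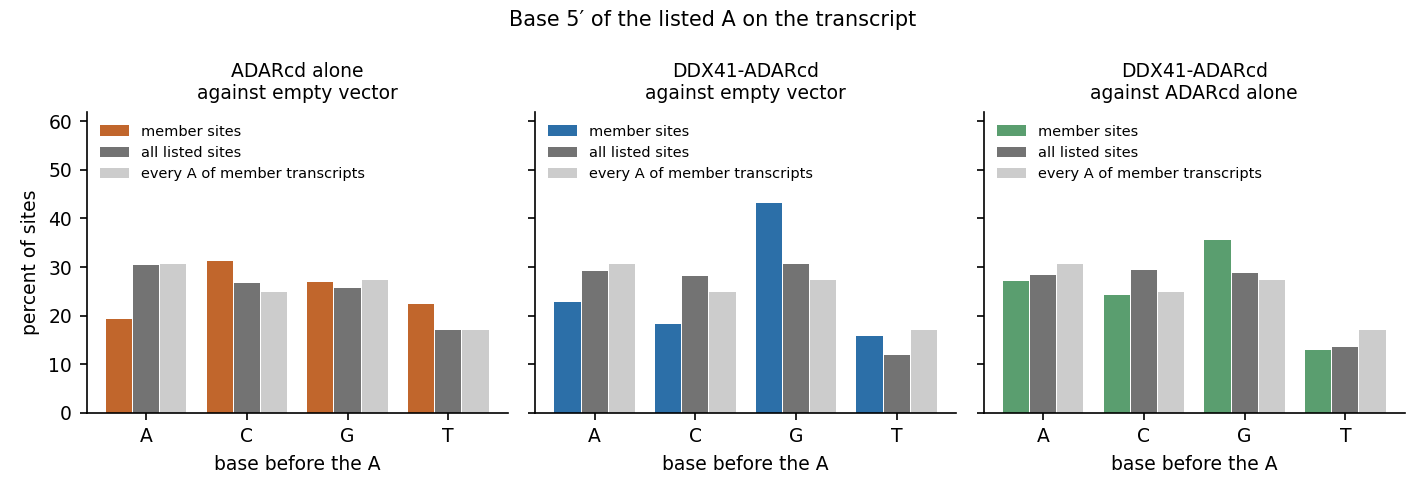
Share of sites in percent (vertical axis) with each base before the edited A (horizontal axis) for member sites, all listed sites and every A of the members' transcripts, in the 3 comparisons. G before the A is at 26.9% of member sites of ADARcd alone, and at 43.2% and 35.5% in the lists of DDX41-ADARcd.

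Most member sites were in coding exons, 58 of 67 in ADARcd alone (86.6%, all sites 69.3%), 38 of 44 in DDX41-ADARcd with the empty vector as control (86.4%, all sites 68.3%) and 132 of 182 against ADARcd alone (72.5%, all sites 56.6%). The 3′ UTR held 9 (13.4%, all sites 20.4%), 5 (11.4%, all sites 17.6%) and 31 (17.0%, all sites 28.6%). These shares give each site 1 region. Where transcripts differed, coding sequence was preferred, and a site was called intronic only if no exon covered it. In the lists against the empty vector no member site was then intronic, where 1.37% and 2.28% of all sites were. Yet 23 of the 67 and 14 of the 44 also lay in an intron of another transcript. With such low shares over all sites, a count of 0 here does not set the members apart. Against ADARcd alone, 13 sites (7.14%, near the 6.30% over all sites) lay only in introns of GENCODE 29, in SNRPD3 and LUC7L2. Counting any overlap, 64 of the 182 lay in an intron. The deposited list itself marks 8 member sites in 4 genes as intronic. In SNRPD3, 10 sites lay within chr22:24572790-24574826, a span of 2037 bases, with 13 of 175 reads edited (7.43%). Depths there were 6 to 32 reads in DDX41-ADARcd and 13 to 34 in ADARcd alone. In LUC7L2, 3 sites lay within the 93 bases of chr7:139418908-139419000, with 5 of 28 reads edited (17.9%). At the first of them DDX41-ADARcd had 3 of 13 edited reads (23.1%, 5.04 to 53.8) and ADARcd alone 0 of 15, with p = 0.0873 by Fisher's exact test and an adjusted p of 0.56. This stretch also lies in the overlapping gene C7orf55-LUC7L2, so the reads cannot be assigned to 1 of them. A further 5 sites lay on annotated transcripts with a retained intron and on none of the protein-coding type, in SNRNP70, SRSF7 and RBM39. SNRNP70 and SRSF7 were chosen after their values were seen. The SNRNP70 sites among them also lay in a 3′ UTR, and chr20:35739470 in RBM39 in a coding exon, of other transcripts.

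Reads per position give a measure of relative depth, since both libraries are read at the same bases. The median ratio of DDX41-ADARcd to ADARcd alone reads was 0.655 over the 40 members listed (quartiles 0.599 to 0.712) and 0.651 over all 4036 genes (0.542 to 0.778). With 5 or more positions it was 0.643 over 15 members and 0.659 over 527 genes. SRSF6 (0.477 at 3 positions) and SCAF11 (0.539 at 13) were lowest among members with 3 or more positions. SF3A2, chosen after its values were seen, was highest among these at 0.969 over 4 positions (0.896 to 1.19). Against the empty vector, ADARcd alone had 7.97 times its reads at member positions and 7.71 times over all genes, and DDX41-ADARcd had 5.36 and 5.21 times. No normalized expression values were used here, and positions were listed for an edited read, which is more often met where a library has more reads.

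**Figure D5:**
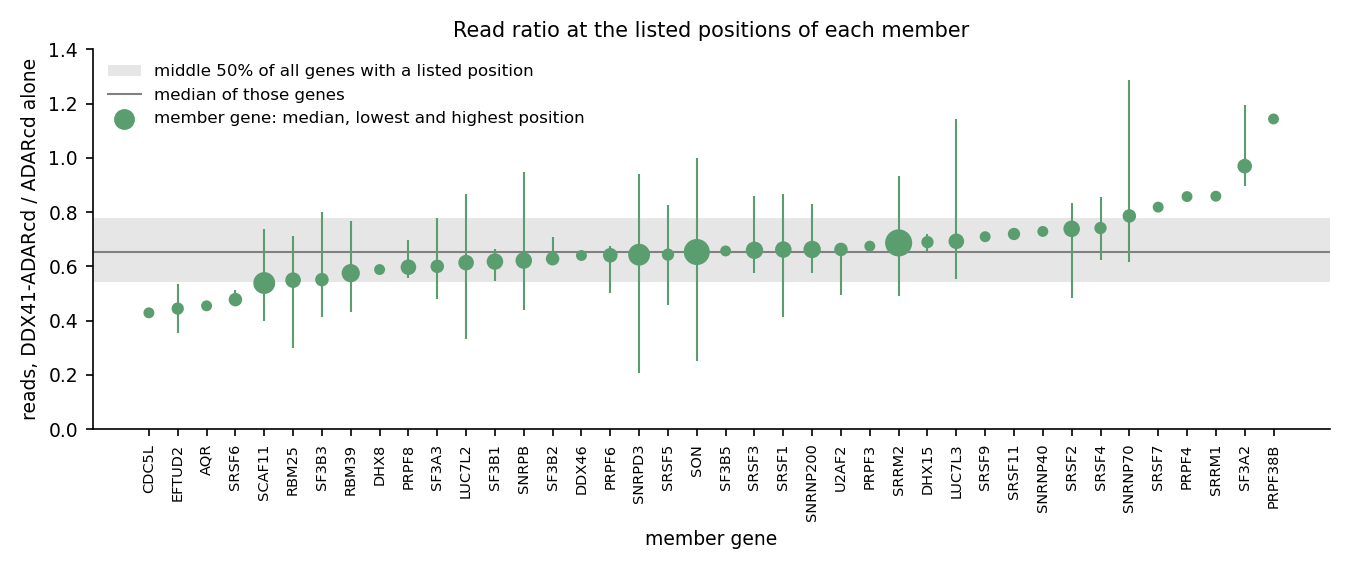
Reads of DDX41-ADARcd divided by reads of ADARcd alone at listed positions (vertical axis, linear), for each member gene (horizontal axis): points are medians, larger with more positions, and lines run from the lowest to the highest position. The band and line are the quartiles and median of all genes, and the members centre on 0.655 beside 0.651 for all genes.

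Of 98 other spliceosome genes, chosen as a wider list of splicing factors, 22 were listed for ADARcd alone (48 sites), 12 for DDX41-ADARcd against the empty vector (24 sites) and 47 against ADARcd alone (118 sites). Fisher's exact test called 0 of their sites after adjustment in each list, and 1, 0 and 0 had an unadjusted p under 0.05. That 1 site was in QKI, an RNA-binding protein that regulates splicing, with 10 edited reads. PPIE, a spliceosomal cyclophilin, had the most sites of this list, 14, 9 and 12, nearly all with 1 edited read.

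The 15 genes of the 59 without a listed site were SF3B6, SF3A1, DDX42, U2AF1, ZRSR2, SRSF10, SNRPA, PRPF39, PRPF31, DDX23, SNRPF, SNRPG, PRPF19, DHX38 and EIF4A3. Their longest coding transcripts had a median length of 2157 bases, against 3233 for the 44 listed members, with overlapping ranges of 770 to 5143 and 693 to 9720. A gene is listed only where reads, an edited read and coverage in the control coincide, so absence from the lists does not show that its RNA was not edited.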

How the data were processed

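The values are counts: per the file headers, each of the 3 deposited site lists gives, for a position and a pair of libraries, the reads with each base and their total, without normalization. The submitters' processing notes give the build as mm10, which is mouse, and the tools as STAR 2.5, CASAVA 1.4 and FastQC 0.11.7. All member positions lay inside the named human gene on GRCh38, which is used here. Not given in the sources used here is the site caller. To tell the libraries apart, the edited library of a list was identified from the order of names in its title, since its columns do not name one.

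Rows of the 59 genes were taken by name, and repeated positions were joined. Each site with at least 10 reads in both libraries was tested with a two-sided Fisher's exact test (scipy 1.17.1, Python 3.11.15), with Benjamini-Hochberg adjustment over all sites of a comparison. For DDX41-ADARcd against ADARcd alone, positions listed for both against the empty vector were added. The test was also run on reads simulated at the depths of the lists, without the selection that listed sites went through. That run does not show how the test behaves on selected sites. Shares have exact Clopper-Pearson 95% intervals, and a count of 0 allows 3 reads of the depth. Both cover counting error only, since PCR reads without molecular identifiers are not independent molecules. The 95% interval of a median level was taken from binomial ranks of the sites, which are not replicates of a condition. Regions and sequences are from GENCODE 29.

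Members, lists and tests were chosen with earlier results of these data known. Named members are, in each list, the 10 with most sites, those of the 8 sites with most edited reads and of the 6 highest levels at 20 or more reads in both libraries, and every member not listed. SRRM1, U2AF2, SNRNP70, PRPF8, SF3A2, SRSF7 and single members given in counts were named after their values were seen. Of the other spliceosome genes, those with most sites are named.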

Additional observations from a re-analysis of the deposited data

How the results depend on the processing

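Of 44 alternatives, 35 kept the value within 1.5 times the main count or within the interval or SD of the main value, and 9 moved it. Those kept include every count of called member sites, which a Bonferroni adjustment could not raise above 0. They also include the counting of each deposited entry, which returned the main values. The 35 of 44 is therefore no measure of how stable the results are. The count of called member sites was 0 in each comparison under each alternative minimum of reads, edited reads and adjustment that was run. With at least 2 edited reads, the median level rose by construction to 2.42% for ADARcd alone, 2.41% for DDX41-ADARcd against the empty vector and 5.08% against ADARcd alone, and the members listed fell to 8, 5 and 18. When 20 reads were required in each library of the pair, the share of member sites of ADARcd alone with 2 or more edited reads was 0%, because all 14 such sites have under 20 reads in the empty vector. Over all sites of that list the share was then 25.8%. The same limit left 11 member sites of DDX41-ADARcd with the empty vector as control, of which 3 (27.3%, from 13.6%) had 2 or more edited reads, with 19.0% over all sites. Leaving out the SON repeat array, an alternative chosen after seeing the data, took the edited reads of ADARcd alone from 127 to 74 and the edited percent of reads to 0.916%. Levels at member sites shared between ADARcd alone and DDX41-ADARcd were not run, since no member site is shared. No paired analysis was possible because each group has 1 library. Depth limits all of this: at the median depth of member sites, a count of 0 in the control allows a level of up to 21.4% in the empty vector and 3.90% in ADARcd alone.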
